A study of Mus musculus with 18 samples.

Results

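The cadherin switch and the regulators of epithelial-mesenchymal transition (EMT) were followed in 10 genes as mouse cells passed from primed to naive pluripotency: the cadherins Cdh1 and Cdh2, the epithelial adhesion gene Epcam, the regulators Snai1, Snai2, Twist1, Zeb1 and Zeb2, and the mesenchymal genes Vim and Fn1. They were taken by symbol from the deposited table, where all 10 of the 10 symbols were among 25239. RNA was sequenced from 18 libraries, 3 in each of 6 groups. Day 0 was EpiSC, a primed stem cell per the labels. D3, D5 and D8 were sampled on days 3, 5 and 8 and carry the label transient. The passage ended in rES, with the label naive, and ESC, mouse embryonic stem cells, stood beside them. The labels used here give mouse embryo as the source of every group, and give no genotype, strain, medium or inducing agent.

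Classical cadherins are calcium-dependent adhesion receptors that join neighbouring cells and are tied to actin through catenins. Cells that leave an epithelium typically lose E-cadherin (Cdh1) and gain N-cadherin (Cdh2), and transcription factors of the SNAIL, TWIST and ZEB families, which repress E-cadherin and other epithelial genes by binding E-box sequences, are known drivers of that change. In the mouse embryo the primed epiblast stands close to gastrulation, where such a transition forms the mesoderm, and E-cadherin holds naive embryonic stem cells in compact colonies.

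The whole table gave the frame for these values. The deposited counts summed to 58.4 to 101.6 M per library, the deepest being D8 replicate 2, and 17545 genes, among them all 10 described here, passed a filter on low counts. Levels are counts per M of library counts (CPM) after scaling by TMM, a method that corrects for library composition. Differences are on the log2 scale, the group named first over the second, with a standard error (SE). They were tested with edgeR's quasi-likelihood F test over all 17545 genes, and called at a Benjamini-Hochberg adjusted p under 0.05. The marker genes at both ends went with the labels: 10 naive markers summed to 4575 to 4648 CPM in rES, 4630 to 4683 CPM in ESC and 59.1 to 65.5 CPM in EpiSC, where Zfp42 and Nr0b1 were at 0, and 8 primed markers summed to 2705 to 2948 CPM in EpiSC. Whether the 3 libraries of a group came from separate cultures is not said in the labels used here, and the spread behind each p may therefore be technical.

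All 10 genes are protein-coding in GENCODE vM21. Positions are on GRCm38, another name of the mm10 in the submitters' processing notes. Cdh1 lies at chr8:106603351-106670246 on the plus strand (ENSMUSG00000000303.12), Epcam at chr17:87635979-87651129 on the plus strand (ENSMUSG00000045394.9) and Fn1 at chr1:71585520-71653200 on the minus strand (ENSMUSG00000026193.15). Snai1 lies at chr2:167538195-167542814 on the plus strand (ENSMUSG00000042821.7), Zeb2 at chr2:44983632-45117395 on the minus strand (ENSMUSG00000026872.17) and Vim at chr2:13573927-13582826 on the plus strand (ENSMUSG00000026728.9). Snai2 lies at chr16:14705852-14709385 on the plus strand (ENSMUSG00000022676.7) and Twist1 at chr12:33957671-33959829 on the plus strand (ENSMUSG00000035799.6). Cdh2 (ENSMUSG00000024304.14, minus strand) and Zeb1 (ENSMUSG00000024238.15, plus strand) are both on chromosome 18. The counts are per gene symbol, and the annotation they were counted on is not given in the sources used here. Exon lengths used below are the union of a gene's exons in GENCODE vM21.

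Cdh1 encodes E-cadherin, the adhesion receptor of epithelia and of naive stem cell colonies. It rose after D3, and was higher than in EpiSC at D5, at D8, in rES and in ESC. Per library it stood at 617, 614 and 647 CPM in EpiSC, 673, 714 and 636 CPM at D3, 1554, 1378 and 1387 CPM at D5, 1164, 1025 and 1082 CPM at D8, 1072, 1088 and 1096 CPM in rES and 1404, 1405 and 1296 CPM in ESC. The libraries of EpiSC and D3 overlapped, and every later library lay above both groups. At D5 the level was 2.30-fold that in EpiSC (log2 difference 1.20, SE 0.06, adjusted p = 8.3e-12), at D8 1.74-fold (log2 0.80, SE 0.06, adjusted p = 2.03e-09) and in rES 1.73-fold (log2 0.79, SE 0.06, adjusted p = 3.52e-09). The difference at D3 was 0.11 (SE 0.06, adjusted p = 0.153) and missed the threshold. The course was not steady: D8 fell below D5 by 0.40 on the log2 scale (SE 0.06, adjusted p = 4.96e-05), and rES lay below ESC by a log2 difference of -0.33 (SE 0.06, adjusted p = 0.000568). Ordered from the highest, the groups ran D5, ESC, D8, rES, D3 and EpiSC. In that order D5 and ESC, D8 and rES, and D3 and EpiSC were neighbours whose difference missed the threshold.

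Cdh2 encodes N-cadherin, the cadherin of mesenchymal, neural and gastrulating cells. It was lower than in EpiSC in every other group. Library by library, the level was 108, 114 and 115 CPM in EpiSC, 55.8, 55.9 and 62.9 CPM at D3, 31.6, 34.1 and 35.5 CPM at D5, 32.6, 34.1 and 29.4 CPM at D8, 6.83, 5.56 and 5.66 CPM in rES and 5.95, 6.81 and 7.29 CPM in ESC. The levels made 4 steps without overlap between them: EpiSC, then D3, then D5 with D8, then rES with ESC. D3 lay 1.93-fold below EpiSC (log2 difference -0.95, SE 0.09, adjusted p = 6.92e-08) and D5 lay 1.72-fold below D3 (log2 -0.79, SE 0.09, adjusted p = 1.1e-06). Between D8 and D5 the difference was -0.08 (SE 0.09, adjusted p = 0.546). The step at the end was the largest of the 4 neighbouring steps, with rES 5.32-fold below D8 (log2 -2.41, SE 0.10, adjusted p = 3.52e-13). In all, rES lay 18.7-fold below EpiSC (log2 -4.22, SE 0.11, adjusted p = 7.17e-16) and ESC 16.8-fold below it (log2 -4.07, SE 0.11, adjusted p = 1.28e-15). In bulk RNA, fewer cells that express a gene and less RNA of it per cell cannot be told apart, here and below.

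**Figure D1:**
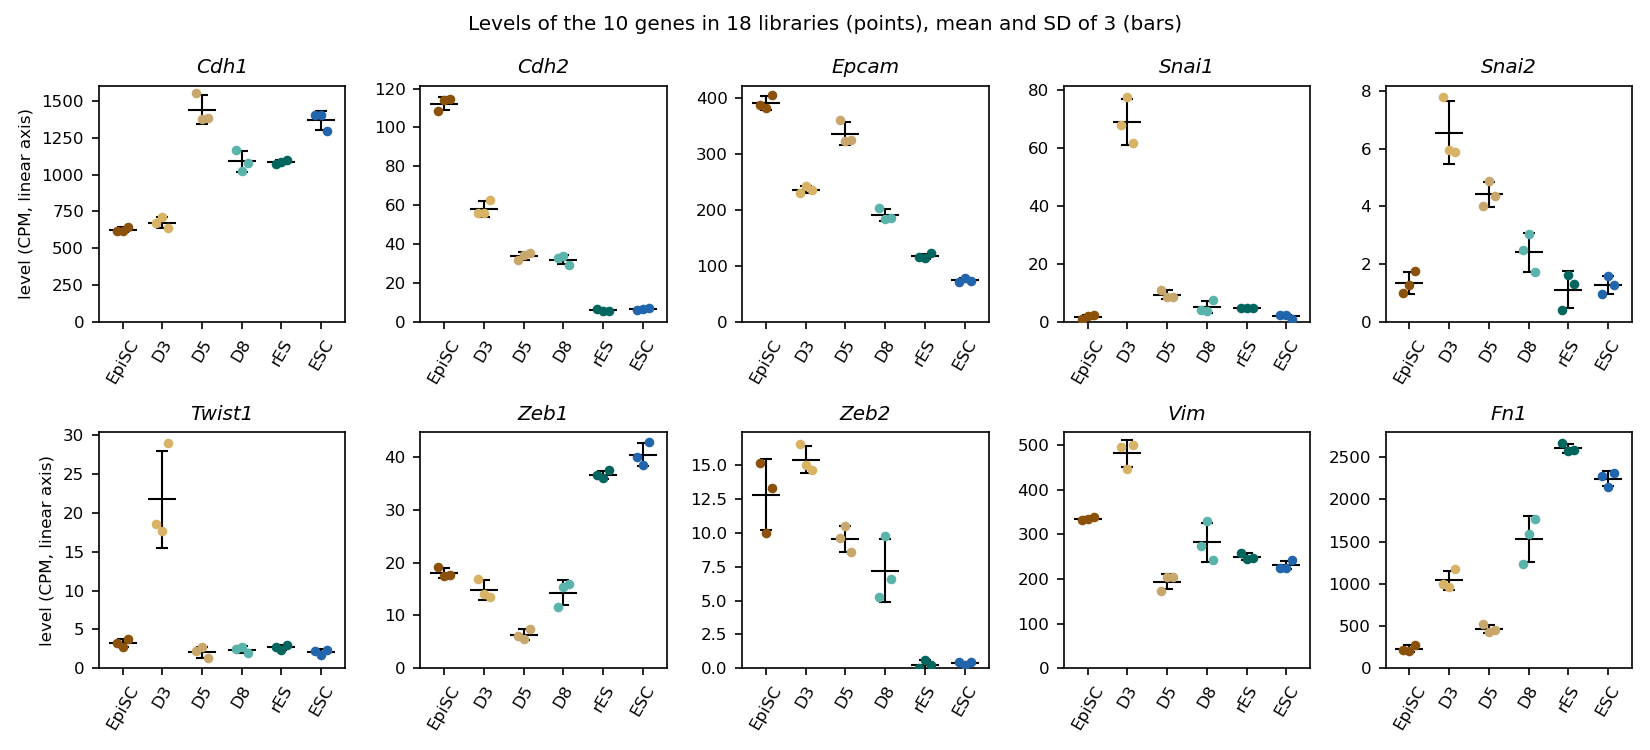
Levels of the 10 genes (CPM, a linear axis of its own for each gene) in the 6 groups, with a point per library, a bar for the mean of 3 and whiskers for the SD. Cdh1 sits at 1025 CPM or above from D5 on, Cdh2 steps down to at most 7.29 CPM in rES and ESC, and Snai1 and Twist1 peak at D3.

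The balance of the cadherins was computed in each library as log2 of (Cdh1 + 0.5 CPM) over (Cdh2 + 0.5 CPM). E-cadherin transcripts were in excess in every library, including the primed cells. The balance was 2.47 ± 0.04 in EpiSC, 3.52 ± 0.18 at D3, 5.39 ± 0.18 at D5, 5.07 ± 0.16 at D8, 7.39 ± 0.17 in rES and 7.58 ± 0.19 in ESC (mean and SD, n = 3 each). No library of D3, D5, D8, rES or ESC overlapped EpiSC, and the balance moved toward Cdh1 at D3, at D5 and again between D8 and rES. Each of these differences had an exact two-sided permutation p of 0.1, the smallest that 3 against 3 libraries can give. At D8 the balance lay 0.32 below D5 on this scale, also at the smallest exact permutation p of 0.1, and between rES and ESC the difference was -0.19 (exact permutation p = 0.3). Corrected for exon length, Cdh1 exceeded Cdh2 9.83-fold in EpiSC, 20.5-fold at D3, 75.6-fold at D5, 60.3-fold at D8, 321-fold in rES and 364-fold in ESC. These are arithmetic means of the library ratios. From EpiSC to D3, Cdh2 was called lower and the difference in Cdh1 missed the threshold, and from D8 to rES the same held (Cdh1 adjusted p = 0.932 by edgeR). From D3 to D5 both were called.

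**Figure D2:**
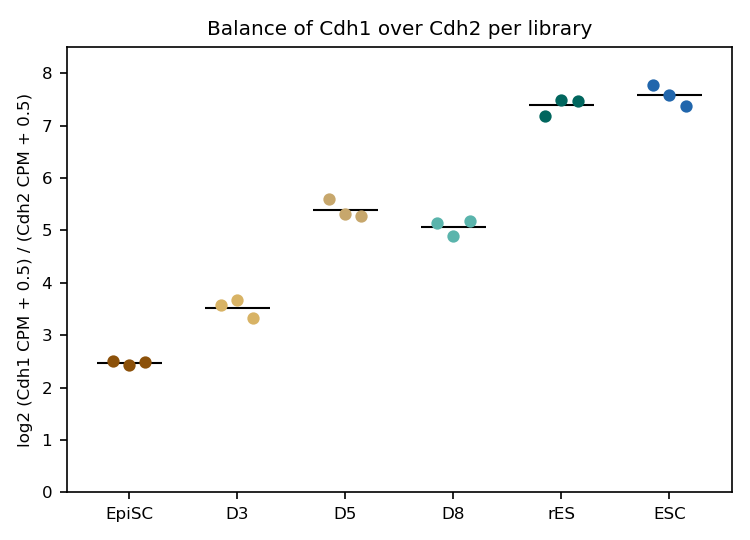
Balance of the cadherins, log2 of (Cdh1 CPM + 0.5) over (Cdh2 CPM + 0.5), per library (points) with the mean of 3 (bar) in each group. The means run from 2.47 in EpiSC to 7.39 in rES and 7.58 in ESC, and the D8 libraries lie below those of D5.

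Other cadherins, classical but for Cdh13, were set against the pair as shares of 13 cadherin genes, per kilobase of exon. Cdh1 held a median of 79.6% at D3, 94.2% at D5, 84.6% at D8, 97.1% in rES, 97.9% in ESC and 79.4% in EpiSC. Cdh2 held 3.74% at D3, 1.34% at D8, 0.285% in rES, 0.269% in ESC and 7.97% in EpiSC. At D8 the share of Cdh3, the P-cadherin of placenta and basal epithelia, was 10.7 to 11.2%, against 2.71 to 3.42% in EpiSC, and its level was 134.9 ± 7.95 CPM at D8, against 23.2 ± 2.84 CPM in EpiSC (SD, n = 3 each; log2 2.54, adjusted p = 5.43e-12 by edgeR). At D3 the endothelial VE-cadherin gene Cdh5 averaged 40.2 ± 5.15 CPM, against 1.65 ± 0.46 CPM in EpiSC (log2 4.60, adjusted p = 9.64e-08 by edgeR), and it averaged 3.38 CPM at D5. Cdh5 thus had its highest group mean at D3 and Cdh3 at D8. The 11 other cadherins counted 5 higher and 4 lower at D3, 4 and 5 at D5, 5 and 4 at D8, 1 and 8 in rES, and 1 and 7 in ESC, each against EpiSC. Their median log2 difference was -0.11 at D3 and -2.51 in rES, beside 0.00 and -0.09 over all genes tested, of which 64.2% and 69.4% were called. Cdh10, a cadherin of the nervous system, fell to 0.09 CPM in rES, against 20.9 CPM in EpiSC (log2 -7.91, adjusted p = 1.19e-08 by edgeR).

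Epcam encodes an epithelial cell adhesion molecule found on many epithelia and on embryonic stem cells. It did not follow Cdh1. Its level was below EpiSC in all 5 other groups, and lowest in ESC. The 18 libraries gave 388, 382 and 405 CPM in EpiSC, 230.0, 242 and 236 CPM at D3, 361, 324 and 325 CPM at D5, 204, 185 and 185 CPM at D8, 117, 114 and 122 CPM in rES and 71.7, 78.2 and 73.1 CPM in ESC. No 2 groups overlapped. D3 lay below EpiSC (log2 -0.73, SE 0.06, adjusted p = 1.09e-08), D5 rose above D3 (log2 0.51, SE 0.06, adjusted p = 1.47e-06), D8 lay below D5 (log2 -0.81, SE 0.06, adjusted p = 1.16e-08) and rES below D8 (log2 -0.70, SE 0.06, adjusted p = 1.25e-08). All 5 neighbouring steps in the order of its levels, EpiSC, D5, D3, D8, rES and ESC, passed the test, which held for none of the other 9 genes. From EpiSC to ESC the fall was 5.27-fold (log2 -2.40, SE 0.07, adjusted p = 2.22e-15).

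Sequences upstream of these genes were read from RefSeq (GRCm38.p6), as the 250 bases before each annotated start, because SNAIL and ZEB factors recognise the E-box CACCTG. It was searched on both strands, as CACCTG or its reverse complement CAGGTG, and 17.2% of 32851 such windows hold it at least once and 2.06% at least 2 times. The windows of Epcam and Snai1 held it, and those of Vim, Twist1 and 4 starts of Zeb2 did not, which says only that these letters are absent from these windows. No window of Cdh1, Cdh2, Snai2, Zeb1 or Fn1 was examined, so nothing is said of theirs. The Epcam window (chr17:87635729-87635978, plus strand) has 2 matches, with first bases 187 and 19 bases before the start. The Snai1 window (chr2:167537945-167538194, plus strand) has 1, at 126 bases before the start. Both are given 5′ to 3′ with the E-box in capitals. A match is a description of the letters, not a bound site.
Epcam: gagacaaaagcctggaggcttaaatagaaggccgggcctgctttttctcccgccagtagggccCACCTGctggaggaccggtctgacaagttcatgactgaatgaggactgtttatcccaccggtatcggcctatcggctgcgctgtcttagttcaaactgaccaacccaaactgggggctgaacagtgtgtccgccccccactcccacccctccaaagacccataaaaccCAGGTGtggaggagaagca
Snai1: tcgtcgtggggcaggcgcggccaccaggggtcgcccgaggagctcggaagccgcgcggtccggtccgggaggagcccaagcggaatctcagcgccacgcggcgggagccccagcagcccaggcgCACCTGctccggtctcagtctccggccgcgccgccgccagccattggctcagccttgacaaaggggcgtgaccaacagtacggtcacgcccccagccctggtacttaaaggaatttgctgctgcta

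Snai1 encodes the zinc-finger repressor SNAIL, required in the mouse embryo for normal gastrulation. It peaked at D3. Per library, Snai1 had 1.01, 1.95 and 2.23 CPM in EpiSC, 68.0, 77.7 and 61.7 CPM at D3, 11.1, 8.46 and 8.57 CPM at D5, 4.18, 3.82 and 7.57 CPM at D8, 4.72, 4.95 and 4.67 CPM in rES and 2.22, 2.21 and 1.14 CPM in ESC. The D3 libraries lay far above all others, and all libraries of D5, D8 and rES also lay above EpiSC. D3 was 40.0-fold above EpiSC (log2 5.32, SE 0.32, adjusted p = 7.43e-11), the largest rise among the 10 genes in the 5 comparisons with EpiSC. It then fell: D5 lay 7.38-fold below D3 (log2 -2.88, SE 0.28, adjusted p = 6.71e-08). D8 lay below D5 by a log2 difference of -0.86 (SE 0.27, adjusted p = 0.0139), a call that was lost without D5 replicate 1, D8 replicate 1 or D8 replicate 2 (adjusted p = 0.062, 0.0598 and 0.0738 by edgeR). In rES it was still 2.76-fold the EpiSC level (log2 1.46, SE 0.29, adjusted p = 0.00023), while ESC differed from EpiSC by 0.09 (SE 0.30, adjusted p = 0.816). Its levels ran D3, D5, D8, rES, ESC and EpiSC from the highest, and D8 with rES, and ESC with EpiSC, were not told apart.

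Cdh1 did not drop where Snai1 peaked. At D3, with Snai1 at 69.1 ± 8.06 CPM against 1.73 ± 0.64 CPM in EpiSC, Cdh1 averaged 674 ± 39.3 CPM against 626 ± 18.1 CPM in EpiSC (SD, n = 3 each), and it was Epcam and Cdh2 that were lower. Across the 6 group means of log2 CPM, Pearson's r between Snai1 and Cdh1 was -0.26, between Twist1 and Cdh1 -0.69 and between Vim and Cdh1 -0.89. These are descriptions over 6 points from libraries of 1 series, which share their preparation.

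Snai2 encodes SLUG, the close relative of SNAIL active in neural crest and in adult epithelia. It was highest at D3, and unlike Snai1 it was not called higher than EpiSC in rES. The libraries held 1.00, 1.28 and 1.76 CPM in EpiSC, 7.80, 5.97 and 5.87 CPM at D3, 4.01, 4.88 and 4.35 CPM at D5, 2.47, 3.05 and 1.71 CPM at D8, 0.40, 1.62 and 1.32 CPM in rES and 0.95, 1.60 and 1.27 CPM in ESC. The libraries of D3 and D5 lay above all others, and those of EpiSC, rES and ESC overlapped. D3 was 4.86-fold above EpiSC (log2 2.28, SE 0.39, adjusted p = 4.83e-05) and D5 was 3.28-fold above it (log2 1.71, SE 0.38, adjusted p = 0.000595). At D8 the difference of 0.84 (SE 0.38, adjusted p = 0.0507) missed the threshold, which it passed with RLE size factors, another scaling by library composition (adjusted p = 0.0323 by edgeR), in DESeq2 (adjusted p = 0.0244), with the replicate block (adjusted p = 0.0487 by edgeR) and without D8 replicate 3 or EpiSC replicate 3 (adjusted p = 0.0282 and 0.0317 by edgeR). The D8 difference also passed with counts divided by 4 and with the 2 groups fitted alone (adjusted p = 0.022 and 0.0479 by edgeR). rES lay below D8 (log2 -1.12, SE 0.38, adjusted p = 0.0141), a call lost without D8 replicate 2 or rES replicate 1 (adjusted p = 0.0657 and 0.0553 by edgeR). That call was also lost with the 2 groups fitted alone (adjusted p = 0.0624 by edgeR). In rES and ESC the differences from EpiSC were -0.28 and -0.08, both with an SE near 0.39 and adjusted p = 0.537 and 0.888 by edgeR. None of the 5 neighbouring steps in its order, D3, D5, D8, EpiSC, ESC and rES, passed the test in the main fit. D5 against D3 passed with the 2 groups fitted alone (log2 -0.58, adjusted p = 0.0152 by edgeR). D8 against D5 passed with counts divided by 4 and with the 2 groups fitted alone (adjusted p = 0.0198 and 0.0152 by edgeR).

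Twist1 encodes a basic helix-loop-helix factor of mesoderm and neural crest. It too was high at D3. Single libraries stood at 3.28, 2.80 and 3.83 CPM in EpiSC, 18.6, 17.6 and 29.0 CPM at D3, 2.18, 2.73 and 1.30 CPM at D5, 2.54, 2.81 and 1.92 CPM at D8, 2.80, 2.39 and 2.99 CPM in rES and 2.23, 1.75 and 2.42 CPM in ESC. The 3 D3 libraries stood apart and the other 5 groups lay between 1.30 and 3.83 CPM. D3 was 6.58-fold above EpiSC (log2 2.72, SE 0.27, adjusted p = 5.79e-08), and D5 was 10.5-fold below D3 (log2 -3.39, SE 0.27, adjusted p = 7.52e-09). Against EpiSC, D5 lay lower by a log2 difference of -0.67 (SE 0.26, adjusted p = 0.028) and ESC by -0.63 (SE 0.26, adjusted p = 0.0411), and neither call was firm. The D5 call was lost without D5 replicate 3, EpiSC replicate 1 or EpiSC replicate 3 (adjusted p = 0.148, 0.051 and 0.101 by edgeR). The ESC call was lost without ESC replicate 1 or 2 or EpiSC replicate 1 or 3 (adjusted p = 0.0677, 0.144, 0.071 and 0.136 by edgeR), with RLE size factors (0.0867), in DESeq2 (adjusted p = 0.0852) and with the replicate block (adjusted p = 0.0557 by edgeR). With the 2 groups fitted alone, the D5 and ESC calls of Twist1 were also lost (adjusted p = 0.0557 and 0.0772 by edgeR). Beyond the step from D3, its neighbouring groups were not told apart.

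Zeb1 encodes a zinc-finger and homeodomain repressor that forms a mutual inhibition loop with the miR-200 family. It was lowest at D5 and highest in the naive cells. Per library it stood at 19.2, 17.5 and 17.7 CPM in EpiSC, 16.9, 14.1 and 13.5 CPM at D3, 6.06, 5.58 and 7.52 CPM at D5, 11.6, 15.3 and 16.0 CPM at D8, 36.5, 36.0 and 37.4 CPM in rES and 40.0, 38.5 and 42.8 CPM in ESC. All rES and ESC libraries lay above all others, and all D5 libraries below all others. At D3 the difference from EpiSC was -0.29 (SE 0.13, adjusted p = 0.0549), and without D3 replicate 1 it passed (adjusted p = 0.0195 by edgeR). With counts divided by 4 it passed too (adjusted p = 0.0347 by edgeR). D5 lay 2.83-fold below EpiSC (log2 -1.50, SE 0.13, adjusted p = 8.33e-09), and D8 rose above D5 (log2 1.17, SE 0.13, adjusted p = 1.07e-06). rES was 2.02-fold above EpiSC (log2 1.02, SE 0.13, adjusted p = 1.21e-06) and ESC was 2.23-fold above it (log2 1.16, SE 0.13, adjusted p = 2.52e-07). The lower level at D8 (log2 -0.34, SE 0.13, adjusted p = 0.0228) was no longer called with RLE size factors (adjusted p = 0.0788 by edgeR), in DESeq2 (adjusted p = 0.0765), or without EpiSC replicate 1 or D8 replicate 1 (adjusted p = 0.0769 and 0.181 by edgeR). Nor was it called with the 2 groups fitted alone (adjusted p = 0.0698 by edgeR).

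Zeb2 encodes the other ZEB factor, a partner of SMAD proteins. It was present in EpiSC and through D8 and nearly gone in the naive cells. By library, Zeb2 had 15.1, 9.97 and 13.3 CPM in EpiSC, 16.6, 14.97 and 14.7 CPM at D3, 9.62, 10.5 and 8.58 CPM at D5, 5.24, 9.77 and 6.57 CPM at D8, 0, 0.63 and 0.21 CPM in rES and 0.43, 0.26 and 0.45 CPM in ESC. The naive libraries held 0, 38 and 14 counts in rES and 26, 16 and 32 in ESC, near a floor of 12 counts, while the lowest of the other libraries held 322. Against EpiSC the log2 difference was -5.52 in rES (SE 0.53, adjusted p = 3.52e-08) and -5.05 in ESC (SE 0.51, adjusted p = 7.42e-08). The differences at D3, D5 and D8 were 0.27, -0.42 and -0.83 (SE 0.39 to 0.40, adjusted p = 0.583, 0.354 and 0.0671 by edgeR) and missed the threshold. The D8 difference passed without D8 replicate 2, the highest of its group (adjusted p = 0.035 by edgeR), with counts divided by 4 (0.00476) and with the groups alone (0.0144), and so did that at D5 with the groups alone (adjusted p = 0.0343 by edgeR). D8 was also called lower than D3 (log2 -1.09, SE 0.40, adjusted p = 0.0221). The step between D8 and rES was larger (log2 -4.69, SE 0.52, adjusted p = 2.07e-07), and is the interval in which Zeb1 rose by 1.35 (SE 0.13, adjusted p = 2.6e-08) and Cdh2 fell. Zeb2 shares 653 exonic bases with the antisense gene Zeb2os, and whether counting used strand is not given in the sources used here. Zeb2os itself had 0 to 18 counts per library.

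**Figure D3:**
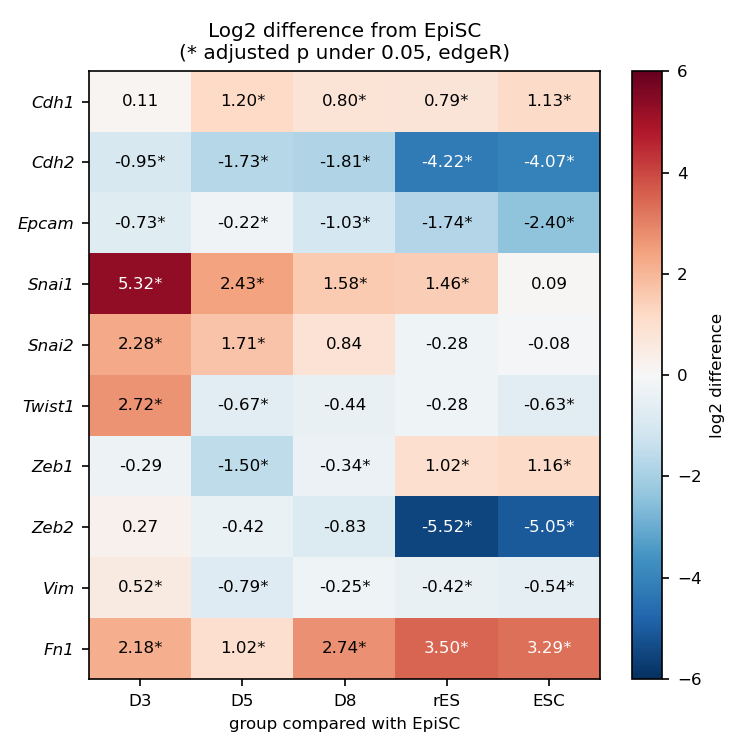
Log2 difference of each of the 10 genes from EpiSC at D3, D5 and D8, in rES and in ESC (colour and number; an asterisk marks an adjusted p under 0.05 by edgeR). Zeb1 and Zeb2 have opposite signs in rES and ESC, Snai1 is largest at D3 with 5.32, and Fn1 is positive in all 5 columns.

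Vim encodes vimentin, the intermediate filament of mesenchymal cells, which many cultured cells also make. It was highest at D3 and lowest at D5. Per library it stood at 333, 334 and 340 CPM in EpiSC, 497, 447 and 501 CPM at D3, 174, 204 and 204 CPM at D5, 274, 329 and 244 CPM at D8, 259, 244 and 247 CPM in rES and 226, 225 and 242 CPM in ESC. D3 lay above and every other library below the EpiSC libraries. D3 was 1.44-fold EpiSC (log2 0.52, SE 0.09, adjusted p = 5.7e-05) and D5 was 2.48-fold below D3 (log2 -1.31, SE 0.09, adjusted p = 1.02e-09). rES and ESC lay below EpiSC by log2 differences of -0.42 and -0.54 (SE 0.09 each, adjusted p = 0.000406 and 3.88e-05 by edgeR). At D8 the difference of -0.25 (SE 0.09, adjusted p = 0.018) was not called with RLE size factors (adjusted p = 0.111 by edgeR) or in DESeq2 (adjusted p = 0.104), and was lost without D8 replicate 1 or 3 (adjusted p = 0.0806 and 0.107 by edgeR). It was also lost with the 2 groups fitted alone (adjusted p = 0.0735 by edgeR).

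Fn1 encodes fibronectin, a matrix glycoprotein that cells bind through integrins and a usual readout of EMT. It was higher than in EpiSC in all 5 other groups, and highest in the naive cells. The 18 libraries gave 212, 201 and 278 CPM in EpiSC, 997, 963 and 1171 CPM at D3, 521, 427 and 449 CPM at D5, 1239.7, 1589.6 and 1772 CPM at D8, 2669, 2573 and 2581 CPM in rES and 2283, 2147 and 2311 CPM in ESC. No 2 groups overlapped. D3 was 4.53-fold above EpiSC (log2 2.18, SE 0.13, adjusted p = 7.73e-11), D5 was 2.24-fold below D3 (log2 -1.16, SE 0.13, adjusted p = 3.32e-07) and D8 was 3.29-fold above D5 (log2 1.72, SE 0.13, adjusted p = 7.74e-09). rES was 11.3-fold above EpiSC (log2 3.50, SE 0.14, adjusted p = 1.68e-13) and ESC 9.76-fold (log2 3.29, SE 0.14, adjusted p = 3.98e-13). Of the 5 steps in its order, rES, ESC, D8, D3, D5 and EpiSC, all passed the test but the step at the top, rES against ESC (log2 0.21, SE 0.12, adjusted p = 0.202). Apol7d overlaps 292 exonic bases of Fn1 on the other strand and had 0 to 67 counts per library, against at least 12703 for Fn1.

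Markers of other cell types also differed between the groups. Trophoblast markers summed to 1670 to 1831 CPM at D3, 1641 to 1825 CPM at D5, 1094 to 1323 CPM at D8, 178 to 185 CPM in rES, 102 to 111 CPM in ESC and 7.70 to 13.8 CPM in EpiSC. All 10 of them had counts at D3, D5, D8 and in rES, Hand1 was at 0 in ESC, and Cdx2 was at 0 in EpiSC. Most of the naive sums was Tfap2c, at 164 CPM in rES and 82.8 CPM in ESC. The next highest there, Tfap2a, averaged 8.01 CPM in rES and 15.3 CPM in ESC. Fibroblast and feeder markers summed to 506 to 663 CPM at D3, 803 to 890 CPM at D5, 1012 to 1686 CPM at D8, 17.4 to 19.4 CPM in rES, 132 to 175 CPM in ESC and 31.4 to 47.7 CPM in EpiSC. All 12 of these had counts at D3, D5, D8 and in ESC, whereas Dcn, Fap, S100a4 and Twist2 were at 0 in rES, and Fap and Meox1 in EpiSC. Mesoderm markers summed to 482 to 537 CPM at D3, where Mesp1 and Msgn1 were at 0 and Hand1 alone averaged 458 CPM, 43.9 to 48.4 CPM at D5, where T, Mesp1 and Msgn1 were at 0, 15.9 to 19.1 CPM at D8, 14.96 to 16.4 CPM in rES, 23.8 to 25.7 CPM in ESC, where Mesp1 and Hand1 were at 0, and 19.5 to 26.5 CPM in EpiSC. Of the 12 fibroblast markers, 10 were called higher and 0 lower at D3 than in EpiSC, where 64.2% of all genes tested were called. At D5 against D3, 5 were called higher and 4 lower, where 59.5% of all genes were called. Col1a1 made up most of the fibroblast sum at D3, with a mean of 404 CPM. Pdgfrb averaged 56.7 CPM at D3, 14.0 CPM at D5 and 1.19 CPM in EpiSC, and Thy1 38.3, 2.34 and 10.55 CPM. Postn averaged 0.89 CPM at D3, against 0.44 CPM in EpiSC, and Dcn 1.35 CPM at D3, against 1.10 CPM in EpiSC. The mesoderm sum, most of it Hand1, was highest at D3 as were Snai1, Snai2, Twist1 and Vim. Hand1 is also 1 of the trophoblast markers, so its counts enter both sums. Of 6 mesoderm markers tested, 4 were called higher and 0 lower at D3 than in EpiSC, where 64.2% of all genes were called. T averaged 1.05 CPM at D3, against 1.29 CPM in EpiSC, and Tbx6 0.04 CPM, against 0.47 CPM. The trophoblast sums at D3 and D5 overlapped and the fibroblast sums were higher at D5 and D8 than at D3. Snai1, Twist1 and Vim were lower at D5 than at D3. The part of any of these markers in the levels at D3 was not tested. Neural progenitor markers, 8 genes, summed to 75.2 to 103 CPM at D3, 21.4 to 22.5 CPM at D5, 19.5 to 27.1 CPM at D8, 36.0 to 39.1 CPM in rES, 42.5 to 43.3 CPM in ESC and 408 to 494 CPM in EpiSC, the group in which Cdh2 was also highest. Of these markers Neurog2 was at 0 at D3, D5 and in ESC, and Olig2 in ESC and EpiSC, and their part in the levels of Cdh2 was not tested. Primitive and visceral endoderm markers, 10 genes, summed to 51.1 to 55.9 CPM at D3, 62.2 to 67.7 CPM at D5, 97.1 to 113 CPM at D8, 18.1 to 19.7 CPM in rES, 9.98 to 12.97 CPM in ESC and 7.11 to 8.70 CPM in EpiSC. Ttr was at 0 in all groups but D8, Afp at D5 and in ESC and EpiSC, and Apoa1 in rES and ESC. Fn1 was highest in rES, where the fibroblast markers were at their lowest sum of the 6 groups.

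Counted over the comparisons with EpiSC, the 10 genes were called about as often as the table as a whole. At D3, 5 were higher and 2 lower, where 64.2% of all genes tested were called either way, 34.1% higher and 30.2% lower. At D5, 4 were higher and 5 lower (of all genes 72.0% called, 37.7% higher and 34.3% lower), and at D8 3 were higher and 4 lower (76.8% called, 42.4% higher and 34.5% lower). In rES 4 were higher and 4 lower (69.4% called, 31.9% higher and 37.5% lower), and in ESC 3 were higher and 5 lower (67.3% called, 31.2% higher and 36.1% lower). Their median log2 difference was 0.39 at D3, -0.32 at D5, -0.29 at D8, -0.28 in rES and -0.31 in ESC, against 0.00, 0.02, 0.19, -0.09 and -0.07 over all genes tested. The 5 comparisons share the EpiSC libraries. Along the passage, 2 of the 10 were higher and 6 lower at D5 than at D3 (59.5% of all genes called, 29.9% higher and 29.6% lower). At D8 against D5, 3 were higher and 3 lower (47.1% called, 25.1% higher and 22.0% lower), and in rES against D8, 2 were higher and 4 lower (71.1% called, 32.7% higher and 38.4% lower). The orders of levels also drew on D8 against D3 (67.5% of all genes called), rES against D3 (70.3%), D5 against ESC (73.6%) and D8 against ESC (71.1%). From D3 to D5 the genes called higher were Cdh1 and Epcam, and those called lower were Cdh2, Snai1, Twist1, Zeb1, Vim and Fn1.

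At the end of the passage, rES and ESC differed past the threshold in Epcam, Snai1 and Cdh1. Of the 10 genes 2 were higher and 1 was lower in rES, where 33.5% of all genes were called, 15.6% higher and 17.9% lower. Epcam averaged 118 ± 4.37 CPM in rES, against 74.3 ± 3.38 CPM in ESC (SD, n = 3 each; log2 0.66, SE 0.06, adjusted p = 4.49e-07 by edgeR). Snai1 averaged 4.78 ± 0.15 CPM in rES, against 1.86 ± 0.62 CPM in ESC (log2 1.37, SE 0.29, adjusted p = 0.00138 by edgeR). Cdh1 averaged 1085 ± 12.5 CPM in rES, against 1368 ± 62.9 CPM in ESC. For Cdh2, Snai2, Twist1, Zeb1, Zeb2, Vim and Fn1 the difference missed the threshold, and the largest of these, -0.47 for Zeb2, had an SE of 0.60. With rES and ESC fitted alone, Vim and Fn1 were also called higher in rES (adjusted p = 0.0261 and 8.1e-05 by edgeR).

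Counts in the related lists stand beside a table in which most genes were called against EpiSC, 64.2% at D3, 72.0% at D5, 76.8% at D8, 69.4% in rES and 67.3% in ESC, with medians of 0.00, 0.02, 0.19, -0.09 and -0.07. Partners of the cadherins changed in both directions. Catenins and cadherin partners, 11 genes, had 5 higher and 4 lower at D3, 6 and 4 at D5, 5 and 5 at D8, 2 and 6 in rES, and 1 and 6 in ESC, with medians of -0.05, 0.31, -0.04, -0.20 and -0.46. Ctnna1, which links the cadherin complex to actin, averaged 1415 ± 127 CPM at D8, against 623 ± 18.7 CPM in EpiSC (log2 1.18, adjusted p = 2.54e-12 by edgeR). Jup, the plakoglobin of both adherens junctions and desmosomes, averaged 433 ± 36.5 CPM at D8, against 142 ± 13.1 CPM in EpiSC (log2 1.60, adjusted p = 2.19e-12 by edgeR). In rES, Vcl, the actin-binding vinculin, averaged 171 ± 4.61 CPM, against 558 ± 21.1 CPM in EpiSC (log2 -1.71, adjusted p = 2.83e-12 by edgeR).

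Simple keratins and epithelial regulators were mostly higher on the way and mixed or lower at the end, whereas Epcam was lower than EpiSC at D3, D5 and D8. All 5 keratins of simple epithelium were higher at D3 and at D5 and 4 at D8, while 4 were lower in rES and 4 in ESC, each against EpiSC. Krt8, a filament protein of simple epithelia and trophoblast, averaged 2452 ± 75.5 CPM at D5 and 2174 ± 311 CPM at D8, against 122 ± 14.0 CPM in EpiSC. Its partner Krt18 averaged 1.67 ± 0.11 CPM in rES, against 129.6 ± 3.09 CPM in EpiSC (log2 -6.27, adjusted p = 8.38e-17 by edgeR). Of 16 genes listed as epithelial regulators, 13 were higher and 2 lower at D3, 14 and 1 at D5, 13 and 2 at D8, and 7 and 7 in both rES and ESC. The list also holds epithelial genes that are not regulators, such as Cldn7, Rab25 and St14. Those lower at D3 and D8 were Cldn7 and Rab25, and the one lower at D5 was Cldn7. Cldn7 is a claudin gene that is also counted among the tight junction genes below. Grhl1, a grainyhead factor of epithelial differentiation, averaged 224 ± 8.57 CPM at D5, against 1.08 ± 0.50 CPM in EpiSC (log2 7.70, adjusted p = 3.85e-15 by edgeR). Esrp1, the epithelial splicing regulator, averaged 0.67 ± 0.13 CPM in rES, against 96.2 ± 1.76 CPM in EpiSC (log2 -7.17, adjusted p = 6.25e-16 by edgeR), although Cdh1 was higher there.

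Junction genes were called in both directions. Of 13 tight junction genes, 6 were higher and 3 lower at D3, 8 and 4 at D5, 5 and 5 at D8, 2 and 9 in rES, and 2 and 10 in ESC, with a median log2 difference of 0.20 at D3 and -2.10 in rES. At D3 and D8 the share called, 9 of 13 and 10 of 13, was near that of all genes, 64.2% and 76.8%. The claudin gene Cldn4 averaged 1652 ± 256 CPM at D8, against 5.39 ± 2.81 CPM in EpiSC (log2 8.26, adjusted p = 1.38e-14 by edgeR), and Cldn6 averaged 2.53 ± 0.49 CPM in rES, against 107 ± 10.4 CPM in EpiSC (log2 -5.40, adjusted p = 2.19e-14 by edgeR). Of 7 desmosome genes, 5 were higher and 2 lower at D3, 6 and 1 at D5, 5 and 1 at D8, 4 and 1 in rES, and 4 and 2 in ESC. Dsp, the desmoplakin that anchors keratin filaments, averaged 65.1 CPM in rES, against 39.3 CPM in EpiSC (log2 0.73, adjusted p = 2e-07 by edgeR). The trophoblast sums given above were high at D3, D5 and D8 as well, the list shares Krt7 with the keratins and Elf5 with the epithelial regulators, and the part of trophoblast signal in these counts was not tested.

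**Figure D4:**
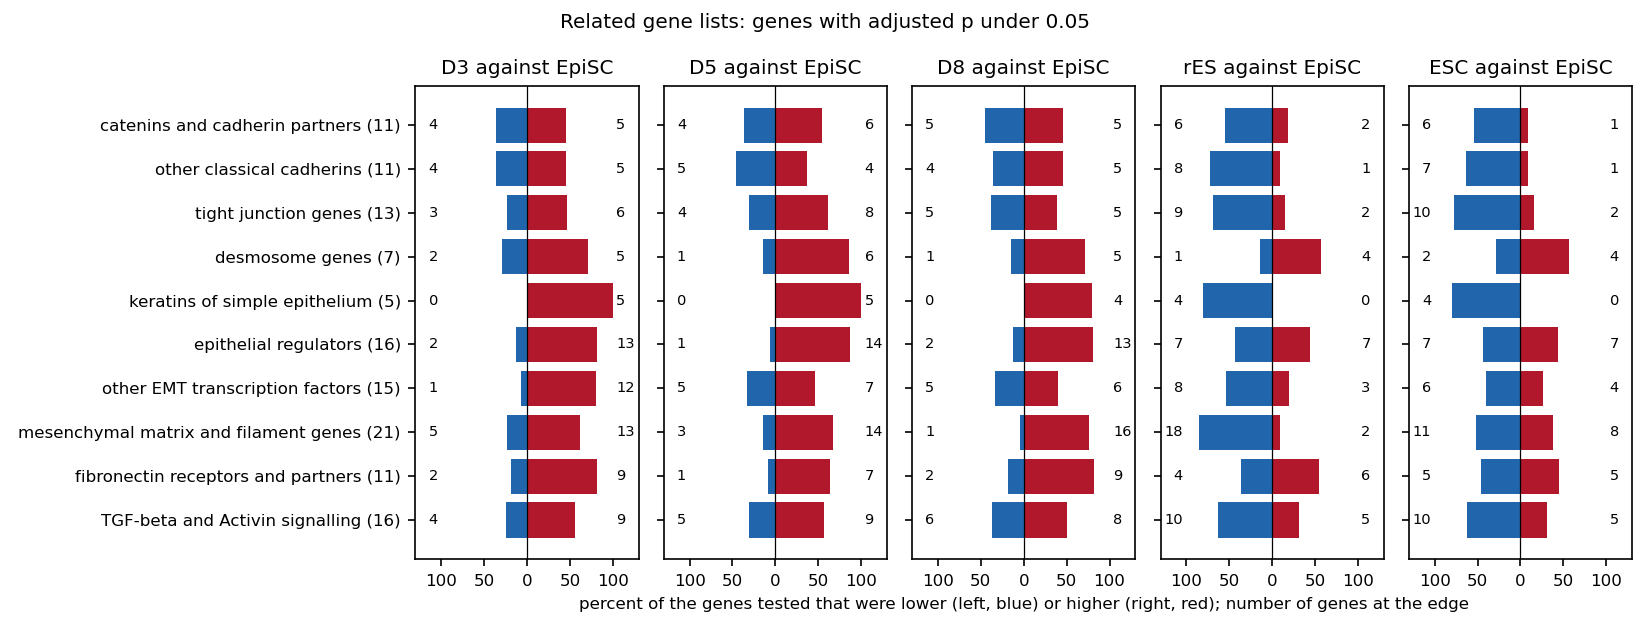
Genes called higher (red, right) and lower (blue, left) than in EpiSC at D3, D5 and D8, in rES and in ESC, for 10 related lists, as a percent of the genes tested in the list, with the number of genes at the edge. Keratins are called higher in 5, 5 and 4 of 5 at D3, D5 and D8, and mesenchymal matrix genes are called lower in 18 of 21 in rES.

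Other transcription factors linked to EMT were most often called higher at D3. Of 15 tested, 12 were higher and 1 lower at D3, 7 and 5 at D5, 6 and 5 at D8, 3 and 8 in rES, and 4 and 6 in ESC, with a median of 2.75 at D3 and -1.93 at D5 relative to D3, against 0.00 in both over all genes tested. Msx2, a homeobox factor of trophoblast and skeletal tissue, averaged 114 ± 1.11 CPM at D3, against 0.36 ± 0.19 CPM in EpiSC (log2 8.31, adjusted p = 8.84e-16 by edgeR). Tcf3, the E-protein E2A that can pair with TWIST1, fell to 174 CPM at D3 and 70.7 CPM at D8, against 226 CPM in EpiSC (adjusted p = 0.00758 and 2.47e-10 by edgeR). Of the 16 listed, Mesp1 did not pass the filter. The miR-200 and miR-205 genes had 6 of 7 symbols in the table and 0 of them passed the filter, so the microRNA side of the ZEB loop gave no value. The list of factors shares Hand1 with the trophoblast markers and Tbxt (T above), Eomes, Mesp1 and Hand1 with the mesoderm markers. It also shares Twist2 with the fibroblast markers, at 4.87 CPM at D3, against 0.13 CPM in EpiSC.

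Mesenchymal matrix and filament genes were mostly lower than EpiSC in rES, where Fn1 was higher, and were called both ways in ESC. Of 21 genes, 13 were higher and 5 lower at D3, 14 and 3 at D5, 16 and 1 at D8, 2 and 18 in rES, and 8 and 11 in ESC. The median log2 difference was 1.09, 1.75, 1.94, -3.35 and -0.55. The collagen gene Col1a1 averaged 404 ± 64.6 CPM at D3, against 6.28 ± 2.25 CPM in EpiSC (log2 6.01, adjusted p = 9.21e-13 by edgeR). Postn, a matrix protein of fibroblasts, averaged 163 ± 46.2 CPM at D8, against 0.44 ± 0.10 CPM in EpiSC (log2 8.52, adjusted p = 9.28e-14 by edgeR). Loxl2, a collagen-crosslinking enzyme, averaged 0.28 CPM in rES, against 36.0 CPM in EpiSC (log2 -7.02, adjusted p = 1.36e-15 by edgeR). Lox, a related crosslinking enzyme, averaged 15.1 CPM in ESC, against 0.04 CPM in EpiSC, and was at 0 in rES. Col1a1 averaged 79.2 CPM in ESC, against 6.28 CPM in EpiSC (log2 3.66, adjusted p = 1.63e-10 by edgeR). Fbln5, an elastic-fibre protein, was higher in both naive groups, at 14.97 CPM in rES and 13.9 CPM in ESC, against 0.10 CPM in EpiSC. Between rES and ESC, 1 of the 21 was higher and 15 were lower. The fibroblast sums given above were also lower in rES than in ESC, 17.4 to 19.4 CPM against 132 to 175 CPM, and 6 of the 12 fibroblast markers are also in this list, so the part of feeder or fibroblast RNA in this difference was not tested.

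Of 11 fibronectin receptors and partners, a list that also holds syndecans and Plaur, 9 were higher and 2 lower at D3, 7 and 1 at D5, 9 and 2 at D8, 6 and 4 in rES, and 5 and 5 in ESC. Itga5, the alpha chain of the main fibronectin receptor, averaged 207 ± 2.88 CPM in ESC, against 60.4 ± 2.09 CPM in EpiSC (log2 1.77, adjusted p = 4.8e-13 by edgeR). Its beta chain Itgb1 was lower where Fn1 was highest, at 199 ± 6.93 CPM in rES and 317 ± 7.22 CPM in ESC, against 794 ± 21.9 CPM in EpiSC (log2 -2.00 and -1.33, adjusted p = 2.77e-14 and 6.07e-12 by edgeR). The 2 called lower at D3 were Itgb1 (672 CPM at D3, log2 -0.24, adjusted p = 0.00403 by edgeR) and Itgb5 (111 CPM at D3, against 173 CPM in EpiSC, log2 -0.64, adjusted p = 8.5e-08 by edgeR). At D3 Itgb3, the beta chain of the vitronectin receptor, averaged 89.9 CPM, against 6.41 CPM in EpiSC (log2 3.81, adjusted p = 3.6e-13 by edgeR).

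Genes of TGF-beta and Activin signalling (ligands, receptors, intracellular mediators and targets), a pathway which can induce the SNAIL and ZEB genes, counted 9 higher and 4 lower of 16 at D3, 9 and 5 at D5, 8 and 6 at D8, and 5 and 10 in both rES and ESC. The ligand Tgfb2 averaged 105.0 ± 17.9 CPM at D8, against 7.52 ± 0.78 CPM in EpiSC, and 1.55 ± 0.73 CPM in rES. Nodal, the ligand of the early embryo, averaged 73.7 ± 1.77 CPM in rES, against 23.6 ± 3.87 CPM in EpiSC (log2 1.64, adjusted p = 3.13e-07 by edgeR), while at D5 it stood at 2.07 CPM (log2 -3.51, adjusted p = 4.57e-11 by edgeR).

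Genes whose course was most like that of a member were sought among 12205 genes with at least 5 CPM in a group, by Pearson's r over the 6 group means of log2 CPM. With 6 points and this many candidates, high values are common, and r is a description. For Cdh1 the closest were Dph1 (r = 0.999), a diphthamide synthesis gene, Vwa8 (0.984) and the ubiquitin ligase scaffold Cul3 (0.979). For Cdh2 they were the milk protein gene Csn3 (0.996), the kinase gene Dclk1 (0.995) and the proteoglycan gene Spock2 (0.994). For Snai1 they were Rnf227 (0.986), Sfn (0.985), an epithelial 14-3-3 gene, and Krt5 (0.984), a keratin of stratified epithelia. For Vim they were the syndecan gene Sdc1 (0.980), the GDNF receptor gene Gfra1 (0.969) and the Mediator subunit gene Med12 (0.962). For Fn1 they were the adhesion gene Pecam1 (0.999), the histidine-degrading enzyme gene Hal (0.994) and Icam1 (0.993), another adhesion gene. Among the members themselves, Cdh2 ran closest to Zeb2 (r = 0.95) and Epcam (0.91), Vim to Twist1 (0.90) and Snai1 to Snai2 (0.85). The most opposed pairs were Epcam with Fn1 (-0.90), Cdh1 with Vim (-0.89) and Cdh2 with Fn1 (-0.85).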

How the data were processed

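RNA from 18 libraries was measured after ribosomal RNA depletion, with paired reads, per the labels' protocols. Per the submitters' processing notes, bcl2fastq, Trim Galore and HISAT2 were used on mm10, without versions. The authors deposited expected counts, as whole numbers with no scaling. Which program and annotation counted them, and whether by strand, is not given in the sources used here. Values of 4 were more frequent than their neighbours, with a median of 314.5 symbols per library against 157 at 3 and 105.5 at 5. The alternative with counts divided by 4 assumed 4 deposited counts per read pair.

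Counts were fitted with edgeR 4.0.16 (limma 3.58.1, R 4.3.3), all 18 libraries and 6 groups in 1 fit, after filterByExpr, with TMM scaling (factors 0.945 to 1.05), and tested with the quasi-likelihood F test with Benjamini-Hochberg adjustment over 17545 genes per comparison. The SE is approximate, from the log2 difference and F. The balance of Cdh1 over Cdh2 used a pseudocount of 0.5 CPM and an exact permutation test. The scripts were tested on simulated data. DESeq2 1.42.0, RLE size factors, no filter, counts divided by 4, the 2 groups alone, a replicate block and each library left out were the alternatives. Intervals and floors cover counting error only, and PCR copies are not independent molecules.

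The 10 genes and the lists were chosen with earlier results of these data known. Besides them, the rule named, from each list and comparison, up to 2 called genes each way with the largest differences, at least 5 CPM in a group and no overlap between libraries, and for 5 members up to 3 genes of the highest Pearson correlation, skipping symbols that start with Gm or end in Rik. Values of further list members in other groups are given beside a named one. Deviations from group means correlated at -0.0607 to 0.0533 (median -7.3e-05) in the 45 pairs of libraries that share a number, and replicates were taken as unpaired. Columns of other samples numbered 0. Some genes that the rule named are not reported here.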

Additional observations from a re-analysis of the deposited data

How the results depend on the processing

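Of 1080 combinations of gene, comparison and setting, 1013 kept their direction and their side of the threshold, 28 lost a call, 22 gained one and 17 changed sign, all 17 among differences that were not called. Those were Snai2 in rES against EpiSC (0.12 without rES replicate 1, with a range of -0.65 to 0.12 over the libraries left out), in ESC against EpiSC (0.038 with RLE size factors, 0.038 in DESeq2, 0.057 with the groups alone, 0.09 without ESC replicate 1, range -0.27 to 0.16) and in rES against ESC (range -0.57 to 0.20). They also included Snai1 in ESC against EpiSC (range -0.18 to 0.36 over the libraries left out) and in rES against D8 (range -0.30 to 0.26), and Zeb2 in rES against ESC (range -1.80 to 0.12, called at -1.80 without rES replicate 2, adjusted p = 0.0409 by edgeR). Twist1 in D8 against D5 ranged over -0.016 to 0.48, and Cdh1 in rES against D8 over -0.050 to 0.031, with 0.050 under RLE size factors and 0.050 in DESeq2. The number of the 10 genes called in rES against ESC was 3 and became 5 with those groups fitted alone, where fewer samples entered the fit; elsewhere it stayed within 1.5 times under the alternatives run. Leaving out 1 library gave 7 to 8 called at D3, 8 to 9 at D5, 5 to 8 at D8, 8 in rES and 7 to 8 in ESC, each against EpiSC, and 3 to 4 in rES against ESC. With a replicate block, which the data do not back as a pairing, 7, 9, 8, 8 and 7 were called at D3, D5, D8, in rES and in ESC. Of 1836 list counts, 1796 stayed within 1.5 times. The balance of the cadherins in rES against EpiSC was 4.86 to 5.01 without 1 library. Depth limits Zeb2 in the naive groups, Snai2 in most groups and Snai1 in EpiSC and ESC, where single libraries moved the values.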
